A study of Mus musculus with 9 samples.

Results

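The 10 genes described here encode the enzymes that build long-chain fatty acids, put double bonds into them and lengthen them: Acaca, Fasn, Scd1, Scd2, Fads1, Fads2, Elovl1, Elovl5, Elovl6 and Elovl7. They were chosen by symbol, as 10 of the 22001 genes in the table, and all 10 were among the 11469 genes with enough counts to be tested. RNA sequencing had measured them in bone marrow-derived macrophages of C57BL6 mice, phagocytes grown in culture from marrow precursors. The 9 libraries formed 3 groups of 3, all at 6 h. The first group received 100 µg/ml of Pam3CSK4 together with 3SL at 100 µl/ml, the second 100 µg/ml of Pam3CSK4 alone, and the third only PBS. Pam3CSK4 is a synthetic lipopeptide ligand of Toll-like receptors. The series title gives 3'-sialyllactose, a milk sugar, and 3SL is read as its short form. The dose of 3SL is given as a volume, so its amount is not known. Titles of that group, and the column names given in its descriptions, write Pamc4, and its treatment tag writes Pamc4-CSL. Its descriptions otherwise name Pam3CSK4 and 3SL, which were followed. The labels name no separate cultures or animals behind the libraries of a group, so each p-value reflects the spread among these libraries only, and that spread may be technical.

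Cells make fatty acids in the cytosol. Acetyl-CoA carboxylase, the product of Acaca, turns acetyl-CoA into malonyl-CoA, and fatty acid synthase, the product of Fasn, joins these units into palmitate. The stearoyl-CoA desaturases Scd1 and Scd2 place the first double bond in saturated acyl chains. Fads2 and Fads1 add further double bonds to dietary polyunsaturated fatty acids, with Fads2 acting before Fads1. The Elovl enzymes carry out the condensing step of chain elongation: Elovl6 lengthens palmitate, Elovl5 acts on polyunsaturated chains, and Elovl1 and Elovl7 make saturated very long chains. Several of these genes, Fasn and Scd1 among them, are known targets of the transcription factor SREBP-1 and of liver X receptors. The chains they make enter the membrane phospholipids from which macrophages release precursors of inflammatory mediators.

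The inflammatory genes went against the labels, so the groups are called 3SL-labelled, Pam3CSK4-labelled and untreated-labelled throughout, and every direction rests on those labels. Levels are given as CPM, counts scaled by library depth with TMM factors. Il1b, which encodes interleukin-1 beta, lay at 7495 to 8561 CPM in the 3SL-labelled libraries, at 4.30 to 7.36 CPM in the Pam3CSK4-labelled libraries and at 9661 to 10559 CPM in the untreated-labelled libraries. Tnf, which encodes tumour necrosis factor, lay at 1219 to 1332 CPM in the 3SL-labelled, at 17.6 to 18.9 CPM in the Pam3CSK4-labelled and at 1651 to 1731 CPM in the untreated-labelled libraries. The 3SL-labelled libraries carry the codes A2plus, B2plus and C2plus, the Pam3CSK4-labelled libraries D1, D2 and D3, and the untreated-labelled libraries A2, B2 and C2. Whatever the letter D stands for cannot be told apart from the Pam3CSK4 label. Total counts ran from 7472482 to 43980309, so that 3 counts, taken as a floor, stood at 0.0746 to 0.422 CPM. All 8 macrophage markers had counts in each group. Their summed level was 21755 to 22355 CPM in the 3SL-labelled, 16196 to 16646 CPM in the Pam3CSK4-labelled and 22393 to 22887 CPM in the untreated-labelled libraries. Most of that sum was Lyz2. In the Pam3CSK4-labelled against the untreated-labelled libraries 6 of the 8 fell, Adgre1 3.32-fold and Spi1 2.49-fold among them. The other 2 rose, Mertk 1.99-fold and Cd68 1.38-fold. Of all tested genes, 35.9% were called lower there and 39.0% higher. Markers of other cells also moved with that label. The 7 dendritic cell markers summed to 89.8 to 94.5 CPM in the 3SL-labelled, 39.7 to 40.6 CPM in the Pam3CSK4-labelled and 90.9 to 92.4 CPM in the untreated-labelled libraries, and most of that was Itgax, which macrophages also express. The 8 neutrophil markers summed to 417 to 456 CPM in the 3SL-labelled, 309 to 402 CPM in the Pam3CSK4-labelled and 516 to 550.3 CPM in the untreated-labelled libraries. Of the 7 tested neutrophil markers, 3 were called higher and 4 lower in the Pam3CSK4-labelled than in the untreated-labelled libraries. Elane and Mpo, granule genes of neutrophil precursors, were 2.19-fold and 2.12-fold higher, and Retnlg was also higher. S100a8, S100a9, Camp and Ltf were lower. The 7 stromal and adipocyte markers summed to 10.5 to 13.5 CPM in 3SL-labelled, 3.36 to 3.79 CPM in Pam3CSK4-labelled and 14.2 to 16.2 CPM in untreated-labelled libraries, with Pdgfrb 9.22-fold lower in the Pam3CSK4-labelled than in the untreated-labelled libraries and Plin1 at 0 in every library. The 7 lymphocyte markers summed to 9.05 to 11.4 CPM in 3SL-labelled, 10.3 to 13.3 CPM in Pam3CSK4-labelled and 10.1 to 11.8 CPM in untreated-labelled libraries, nearly all of it Cd4. The part of these markers in the results was not tested. In bulk samples, fewer cells of a type and less RNA per cell cannot be told apart.

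Most of the 10 genes were highest in the Pam3CSK4-labelled libraries and second in the 3SL-labelled libraries. The exceptions were Scd2, which was highest in the 3SL-labelled libraries, Elovl1, which was lowest in the Pam3CSK4-labelled libraries, and Elovl7, whose 3SL-labelled mean was the lowest. Against the untreated-labelled libraries, 9 genes rose in the Pam3CSK4-labelled libraries and Elovl1 fell, where 39.0% of all tested genes were called higher and 35.9% lower. The libraries of the 2 groups did not overlap for 9 of the 10, Elovl7 being the exception, against 76.0% of all tested genes. The median log2 change of the 10 was 1.37, and that of all tested genes 0.03. Against the Pam3CSK4-labelled libraries, 8 genes fell in the 3SL-labelled libraries and Scd2 and Elovl1 rose, where 36.8% of tested genes were called lower and 34.7% higher. Groups of libraries did not overlap for 9 of the 10, against 73.1% of all tested genes, and the exception was Scd1. The median log2 change was -0.96 for the 10 and -0.02 for all tested genes. Against the untreated-labelled libraries, 7 genes rose in the 3SL-labelled libraries, none fell, and Scd1, Elovl1 and Elovl7 did not pass the test, where 3.83% of tested genes were called higher and 5.11% lower. The libraries of these groups did not overlap for 7 of the 10 genes, against 24.0% of tested genes, and the median log2 change was 0.36, against -0.00 for all. A call is an adjusted p under 0.05 in edgeR's quasi-likelihood test. The comparisons share libraries, so their values are not independent of each other. With library size alone as the scaling, the median gene moved to 0.34 and -0.29 in the comparisons with the Pam3CSK4-labelled libraries. The share of called genes that were higher was then 74.3% for Pam3CSK4-labelled against untreated-labelled, beside 52.0% with TMM, and 27.6% for 3SL-labelled against Pam3CSK4-labelled, beside 48.5%. For 3SL-labelled against untreated-labelled it was 66.0%, beside 42.8%.

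**Figure D1:**
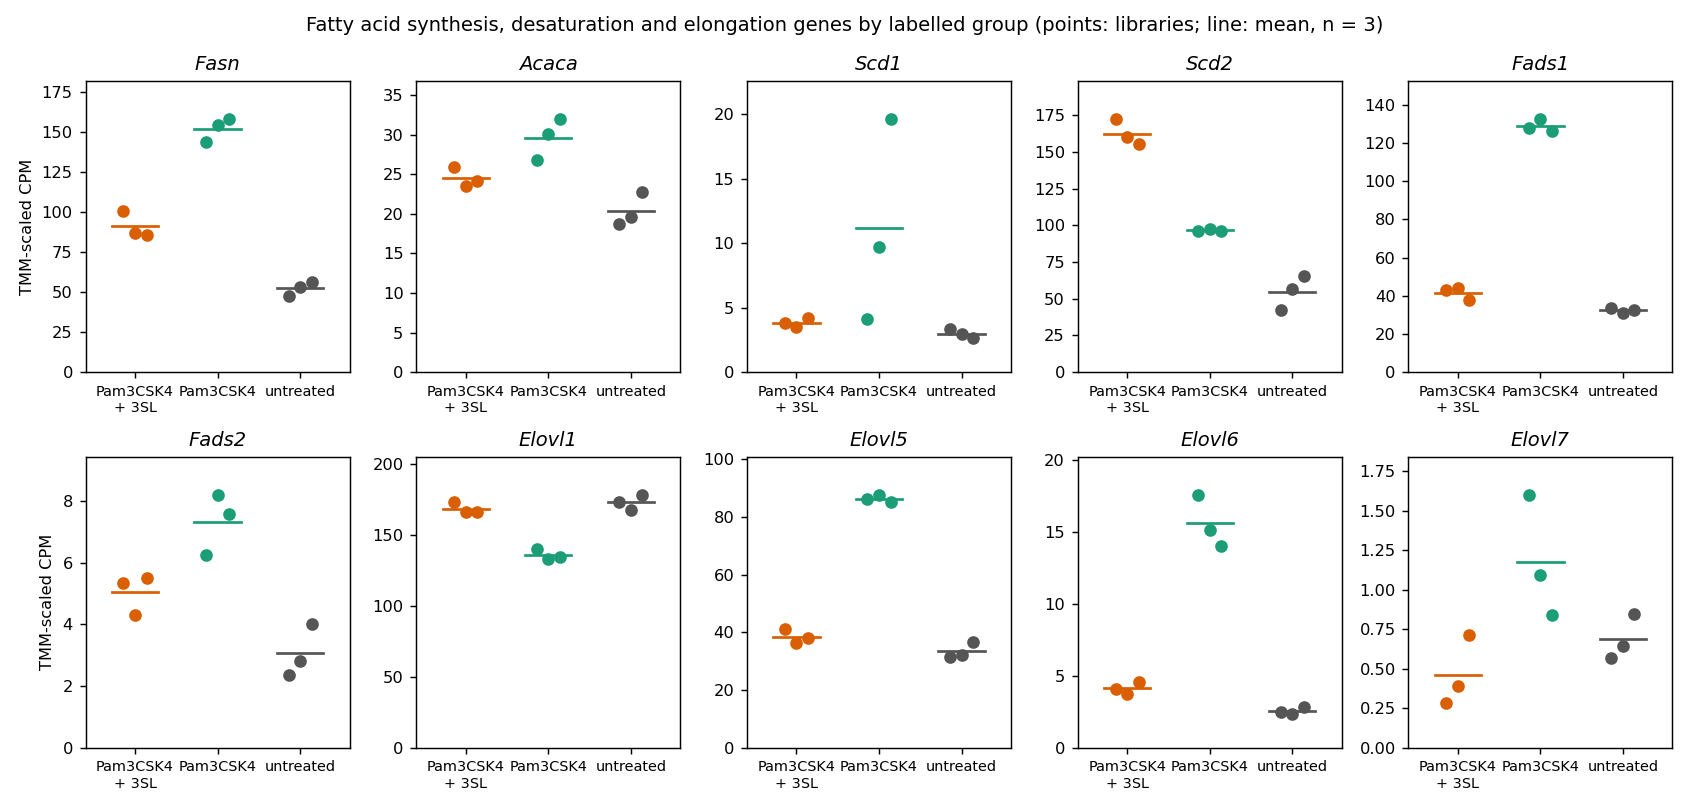
Each panel shows 1 gene as TMM-scaled CPM from 0 upward, with a point per library and a line at the mean of the 3 libraries, for the 3SL-labelled (Pam3CSK4 + 3SL), Pam3CSK4-labelled and untreated-labelled groups from left to right. Scd2 is highest in the 3SL-labelled libraries, at 155 to 173 CPM, and Elovl1 is lowest in the Pam3CSK4-labelled libraries, at 133 to 139.9 CPM.

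Promoter sequences from RefSeq on GRCm38.p6 were matched for 7 of the 10 genes, and Scd1, Scd2 and Fads1 were not matched. The Acaca window (chr11:84195188-84195437) lies inside the annotated gene, which starts at 84129672. RefSeq gives 2 starts for Elovl1. The window of the first is printed, which lies at the start of the annotated gene; that of the second (chr4:118429451-118429700) held 2 GC boxes and no CCAAT. The 250 bases before the RefSeq start are printed for Fasn and Elovl5, both of which rose in the Pam3CSK4-labelled libraries, and for Elovl1, which fell there. Capitals mark matches, on either strand, to the CCAAT box, the GC box GGGCGG and the E-box CACGTG.
Fasn, chr11:120824548-120824797, minus strand: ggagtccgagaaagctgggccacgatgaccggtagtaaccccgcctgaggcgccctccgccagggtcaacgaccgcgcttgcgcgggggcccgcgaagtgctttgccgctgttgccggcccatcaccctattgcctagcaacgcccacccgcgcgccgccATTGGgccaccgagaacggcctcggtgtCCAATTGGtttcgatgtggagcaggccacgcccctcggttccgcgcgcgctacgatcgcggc
Elovl5, chr9:77917115-77917364, plus strand: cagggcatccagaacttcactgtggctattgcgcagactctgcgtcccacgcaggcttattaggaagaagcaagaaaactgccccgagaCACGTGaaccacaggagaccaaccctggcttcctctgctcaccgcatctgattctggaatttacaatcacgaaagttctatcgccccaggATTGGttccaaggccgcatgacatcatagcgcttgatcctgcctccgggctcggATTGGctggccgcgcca
Elovl1, chr4:118427843-118428092, plus strand: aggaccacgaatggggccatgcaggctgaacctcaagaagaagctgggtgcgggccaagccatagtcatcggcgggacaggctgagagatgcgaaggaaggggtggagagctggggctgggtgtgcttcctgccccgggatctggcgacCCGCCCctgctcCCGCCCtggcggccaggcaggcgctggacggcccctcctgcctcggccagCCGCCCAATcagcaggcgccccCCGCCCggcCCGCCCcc
The Fasn window held 3 matches to CCAAT, and those at bases -62 to -58 and -59 to -55 from the start overlap on opposite strands. The Elovl5 window held CACGTG at bases -161 to -156 and CCAAT on the reverse strand at -71 to -67 and -17 to -13. The Elovl1 window held 5 GC boxes, between bases -101 and -3, and CCAAT at -35 to -31, which overlaps the GC box at -39 to -34. Acaca, Fads2, Elovl6 and Elovl7, whose windows are not printed, also rose in the Pam3CSK4-labelled libraries. The Acaca and Elovl6 windows held no match to these motifs. Fads2 held 1 GC box and Elovl7 held 3, both without CCAAT. The matches thus did not divide the genes by direction. CCAAT occurred in 33.85% of 32851 promoters of the same length, the GC box in 32.742% and CACGTG in 6.021%. A sterol regulatory element, a sequence bound by SREBP, was also searched on both strands, as a single exact string of letters. It occurred in 24 of the 32851 promoters (0.073%) and in none of the windows of the 7 matched genes. A string this rare is absent from nearly all promoters, so its absence here cannot decide whether these windows hold SREBP sites. A match or its absence concerns only the letters of these windows.

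Fasn and Acaca both rose in each comparison with the untreated-labelled libraries, Fasn by more than Acaca. Fasn (ENSMUSG00000025153; chromosome 11, 120805846 to 120824547, minus strand, GRCm38) stood at 100.5, 86.7 and 86.0 CPM in A2plus, B2plus and C2plus, at 144, 154 and 158 CPM in D1, D2 and D3, and at 47.6, 53.1 and 56.6 CPM in A2, B2 and C2. No library of any group overlapped another group, and the 3SL-labelled libraries lay between the others. The Pam3CSK4-labelled mean was 152 ± 7.44 CPM against 52.4 ± 4.57 CPM in the untreated-labelled libraries (SD, n = 3 each), 2.92-fold higher (log2 change 1.54 ± 0.057 SE, edgeR adjusted p = 1.75e-19). The 3SL-labelled mean was 91.1 ± 8.16 CPM (SD, n = 3), a log2 change of 0.79 ± 0.062 SE from the untreated-labelled libraries (1.73-fold, edgeR adjusted p = 6.83e-10). By p this was the gene ranked 20 of 11469 in that comparison. From the Pam3CSK4-labelled libraries Fasn fell by 0.75 on the log2 scale (SE 0.058, edgeR adjusted p = 3.79e-12).

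Acaca (ENSMUSG00000020532; chromosome 11, 84129672 to 84401651, plus strand) moved the same ways by smaller steps. Its levels were 26.001, 23.6 and 24.2 CPM in A2plus, B2plus and C2plus, 26.8, 30.1 and 32.02 CPM in D1, D2 and D3, and 18.7, 19.6 and 22.8 CPM in A2, B2 and C2. The groups did not overlap, but the highest 3SL-labelled library, A2plus, was close to the lowest Pam3CSK4-labelled library, D1. The log2 change was 0.57 ± 0.079 SE for Pam3CSK4-labelled against untreated-labelled (edgeR adjusted p = 3.36e-07) and -0.28 ± 0.087 SE for 3SL-labelled against Pam3CSK4-labelled (edgeR adjusted p = 0.00588). For 3SL-labelled against untreated-labelled it was 0.29 ± 0.089 SE (edgeR adjusted p = 0.0367), a call that leaving out A2, B2, A2plus, B2plus or C2plus ended in turn. With D1 as the only Pam3CSK4-labelled library, the log2 change of 3SL-labelled against Pam3CSK4-labelled was -0.14, which restates its level in D1 and is no test. Of the 50-base stretches of Acaca transcripts, 30.4% also occur in transcripts of other genes, nearly all in the pseudogene Gm5182, so its counts are uncertain by however the authors' counting split such reads.

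Scd2 had the smallest p of all 11469 tested genes in the comparison of 3SL-labelled with untreated-labelled libraries. Scd2 (ENSMUSG00000025203; chromosome 19, 44293674 to 44306864, plus strand), the more abundant stearoyl-CoA desaturase in these libraries, stood at 173, 160.0 and 155 CPM in A2plus, B2plus and C2plus. It stood at 96.5, 97.3 and 96.4 CPM in D1, D2 and D3, and at 42.4, 56.9 and 65.3 CPM in A2, B2 and C2. The groups were far apart, with the widest spread among the untreated-labelled libraries. Scd2 was 2.99-fold higher in 3SL-labelled than in untreated-labelled libraries, at 163 ± 8.97 CPM against 54.9 ± 11.6 CPM (SD, n = 3 each; log2 change 1.58 ± 0.078 SE, edgeR adjusted p = 2.63e-13). It was 1.68-fold higher in 3SL-labelled than in Pam3CSK4-labelled libraries, which averaged 96.7 ± 0.534 CPM (SD, n = 3; log2 change 0.75 ± 0.075 SE, edgeR adjusted p = 1.01e-09). The Pam3CSK4-labelled libraries were in turn 1.78-fold above the untreated-labelled ones (log2 change 0.83 ± 0.078 SE, edgeR adjusted p = 2.20e-10). Scd2 was thus the only member besides Elovl1 that rose in the 3SL-labelled libraries against the Pam3CSK4-labelled ones.

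Scd1 (ENSMUSG00000037071; chromosome 19, 44394455 to 44407879, minus strand), the desaturase that prevails in liver and fat, was low in 7 of the 9 libraries. It stood at 3.79, 3.52 and 4.17 CPM in A2plus, B2plus and C2plus, at 4.08, 9.70 and 19.6 CPM in D1, D2 and D3, and at 3.36, 2.96 and 2.65 CPM in A2, B2 and C2. D1 lay within the range of the 3SL-labelled libraries, and D2 and D3 stood above every other library. Scd1 was called 3.68-fold higher in the Pam3CSK4-labelled than in the untreated-labelled libraries (log2 change 1.88 ± 0.30 SE, edgeR adjusted p = 2.88e-06) and fell by 1.54 (SE 0.34, edgeR adjusted p = 2.62e-04) on the log2 scale in the 3SL-labelled libraries against the Pam3CSK4-labelled ones. Without D3 these log2 changes were 1.25 and -0.91, with both calls kept. With D1 alone in the Pam3CSK4-labelled group, a choice made after the Scd1 levels were seen, they were 0.44 and -0.10, which restates its level in D1 and is no test. Between the 3SL-labelled and the untreated-labelled libraries the log2 change was 0.34, with a 95% interval of -0.49 to 1.18 (edgeR adjusted p = 0.687). The libraries of these groups did not overlap, at 3.52 to 4.17 CPM against 2.65 to 3.36 CPM. The fit takes the spread of a gene from all 9 libraries, so the spread among D1, D2 and D3 enters this interval.

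Genes of hepatocytes stood higher in D2 and D3 than in D1, as Scd1 did. Alb, which encodes serum albumin, had 16, 21 and 21 counts in A2plus, B2plus and C2plus, 23, 198 and 221 counts in D1, D2 and D3, and 35, 67 and 18 counts in A2, B2 and C2. The summed level of 7 hepatocyte genes, chosen after values were seen, was 8.85, 10.2 and 7.73 CPM in A2plus, B2plus and C2plus. It was 7.92, 24.7 and 28.8 CPM in D1, D2 and D3, and 8.04, 5.74 and 7.10 CPM in A2, B2 and C2. All 7 were higher in D2 and D3 than in D1, but they were chosen with values known, so this count is no test. They differed unequally. Alb stood at 1.84, 11.4 and 16.9 CPM in D1, D2 and D3, and Ttr at 4.48, 5.05 and 4.89 CPM. Serpina1c had 1, 8 and 2 counts there. Of the 8 neutrophil markers, 6 stood lower in D1 than in both D2 and D3, S100a9 among them at 115, 147 and 160.5 CPM in D1, D2 and D3, and Elane and Ly6g did not. The part of these in the Scd1 result was not tested.

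Scd2 made up most of the reads of the desaturase pair in every library. Its share of the summed Scd1 and Scd2 counts was 97.8%, 97.8% and 97.4% in A2plus, B2plus and C2plus, 95.9%, 90.9% and 83.1% in D1, D2 and D3, and 92.7%, 95.1% and 96.1% in A2, B2 and C2. The 95% Wilson intervals, which cover counting error only, were 96.9 to 98.5% for A2plus, 81.1 to 84.9% for D3 and 90.5 to 94.3% for A2. The 3SL-labelled libraries held the 3 highest shares and D3 and D2 the lowest. Per kilobase of exon the shares moved little, to 97.6% in A2plus and 81.5% in D3. Scd1 and Scd2 share 145 stretches of 50 bases, 2.97% of those of Scd1 and 2.66% of those of Scd2, so a small part of their reads may be split between them. The neighbouring desaturase genes Scd3 and Scd4 had at most 4 counts in any library.

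**Figure D2:**
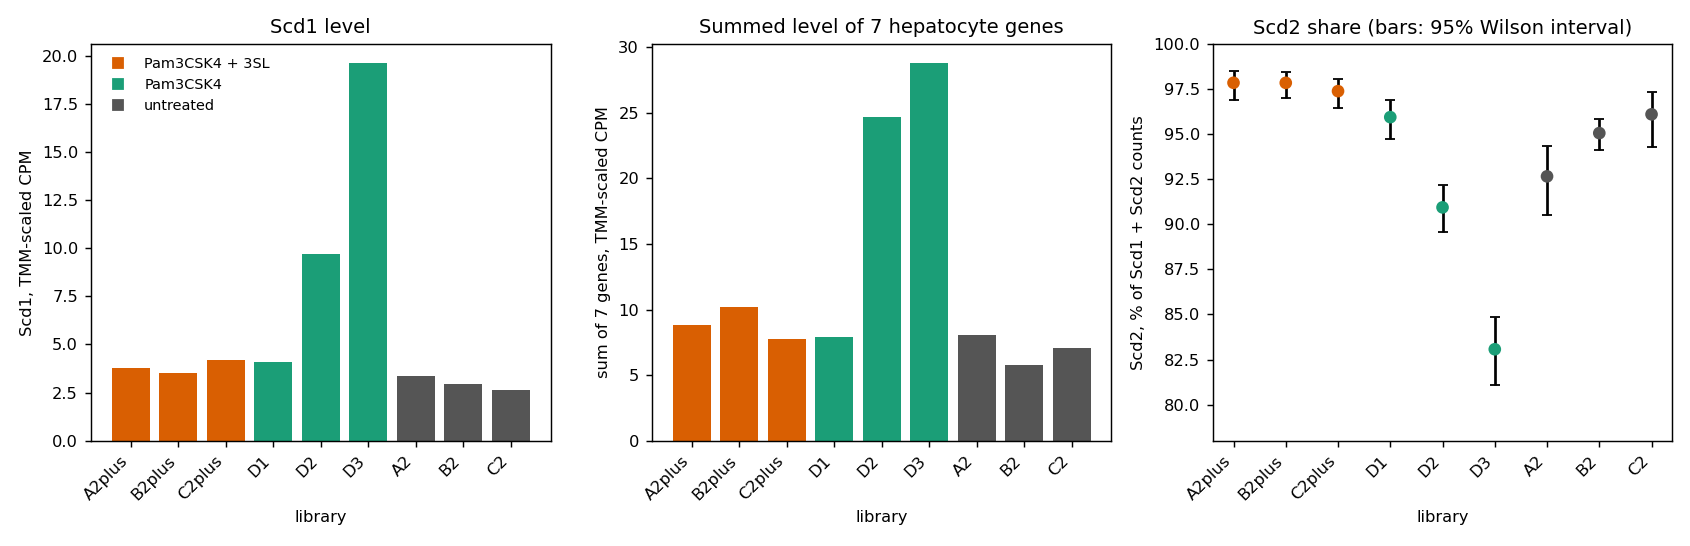
The panels show, by library, the Scd1 level in TMM-scaled CPM, the summed TMM-scaled CPM of 7 hepatocyte genes, and the Scd2 share of Scd1 and Scd2 counts in percent with its 95% Wilson interval, on an axis that starts at 78%; colours mark the labelled groups. D2 and D3 are high in the first panels, at 9.70 and 19.6 CPM of Scd1 and 24.7 and 28.8 CPM of hepatocyte genes, and low in the last.

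The desaturases of polyunsaturated fatty acids both rose in each comparison with the untreated-labelled libraries, and Fads1 moved further in the Pam3CSK4-labelled libraries. Fads1 (ENSMUSG00000010663; chromosome 19, 10182888 to 10196877, plus strand) stood at 42.9, 44.1 and 37.7 CPM in A2plus, B2plus and C2plus, at 128, 133 and 126 CPM in D1, D2 and D3, and at 33.4, 30.7 and 32.8 CPM in A2, B2 and C2. The 3SL-labelled libraries sat just above the untreated-labelled ones and far below the Pam3CSK4-labelled ones. The Pam3CSK4-labelled mean of 129 ± 3.28 CPM was 4.04-fold that of the untreated-labelled libraries, 32.3 ± 1.43 CPM (SD, n = 3 each; log2 change 2.01 ± 0.053 SE, edgeR adjusted p = 7.44e-23). The 3SL-labelled mean of 41.5 ± 3.37 CPM (SD, n = 3) was 3.11-fold below that of the Pam3CSK4-labelled libraries (log2 change -1.64 ± 0.057 SE, edgeR adjusted p = 6.58e-20). It was 1.30-fold above that of the untreated-labelled libraries (log2 change 0.38 ± 0.065 SE, edgeR adjusted p = 2.05e-04).

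Fads2 (ENSMUSG00000024665; chromosome 19, 10062765 to 10101746, minus strand), which acts before Fads1, was expressed at a lower level. It stood at 5.34, 4.31 and 5.49 CPM in A2plus, B2plus and C2plus, at 6.24, 8.21 and 7.57 CPM in D1, D2 and D3, and at 2.34, 2.81 and 4.03 CPM in A2, B2 and C2. The groups did not overlap, though C2 and B2plus were close. Fads2 was 2.55-fold higher in the Pam3CSK4-labelled than in the untreated-labelled libraries (log2 change 1.35 ± 0.17 SE, edgeR adjusted p = 5.48e-08). It was 1.73-fold higher in 3SL-labelled than in untreated-labelled libraries (log2 change 0.79 ± 0.20 SE, edgeR adjusted p = 0.0107), with edgeR adjusted p = 0.0778 without B2 and 0.0628 without C2plus. The fall in the 3SL-labelled against the Pam3CSK4-labelled libraries was a log2 change of -0.56 ± 0.18 SE (edgeR adjusted p = 0.007). That call was lost without B2plus (edgeR adjusted p = 0.0574). With D1 as the only Pam3CSK4-labelled library the log2 change was -0.32, which restates the Fads2 level in D1 and is no test.

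Among the elongases, Elovl6 rose most in the Pam3CSK4-labelled libraries, Elovl5 rose with it, and Elovl1 fell. Elovl6 (ENSMUSG00000041220; chromosome 3, 129532355 to 129638495, plus strand) stood at 4.08, 3.72 and 4.57 CPM in A2plus, B2plus and C2plus, at 17.6, 15.2 and 14.1 CPM in D1, D2 and D3, and at 2.47, 2.36 and 2.86 CPM in A2, B2 and C2. Each group was apart from the others. Elovl6 was 6.27-fold higher in the Pam3CSK4-labelled than in the untreated-labelled libraries, the largest change among the 10 genes (log2 change 2.65 ± 0.14 SE, edgeR adjusted p = 4.01e-16). In the 3SL-labelled libraries it was 3.77-fold below the Pam3CSK4-labelled level (log2 change -1.91 ± 0.15 SE, edgeR adjusted p = 4.12e-12). Against the untreated-labelled libraries its log2 change there was 0.73 ± 0.19 SE (edgeR adjusted p = 0.0126), with edgeR adjusted p = 0.108 without B2 and 0.0818 without C2plus. Its counts in the 3SL-labelled and untreated-labelled libraries were 27 to 95, against 184 to 264 in the Pam3CSK4-labelled libraries. Of its 50-base stretches, 3.46% also occur in the gene model Gm11295.

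Elovl5 (ENSMUSG00000032349; chromosome 9, 77917364 to 77984519, plus strand) stood at 41.0, 36.4 and 37.9 CPM in A2plus, B2plus and C2plus, at 86.2, 87.8 and 85.4 CPM in D1, D2 and D3, and at 31.6, 32.3 and 36.6 CPM in A2, B2 and C2. The Pam3CSK4-labelled libraries were well above the rest, while the 3SL-labelled and untreated-labelled libraries overlapped at B2plus and C2. The log2 change was 1.39 ± 0.057 SE for Pam3CSK4-labelled against untreated-labelled (2.62-fold, edgeR adjusted p = 2.37e-18) and -1.18 ± 0.062 SE for 3SL-labelled against Pam3CSK4-labelled (edgeR adjusted p = 9.45e-16). For 3SL-labelled against untreated-labelled it was 0.21 ± 0.067 SE (edgeR adjusted p = 0.0458). Leaving out any single library other than B2plus or C2 ended that last call, with adjusted p up to 0.219 without B2.

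Elovl1 (ENSMUSG00000006390; chromosome 4, 118428093 to 118432953, plus strand), which makes the saturated chains of sphingolipids, went the other way. It stood at 173, 166 and 166 CPM in A2plus, B2plus and C2plus, at 139.9, 133 and 134 CPM in D1, D2 and D3, and at 173, 167 and 178 CPM in A2, B2 and C2. The Pam3CSK4-labelled libraries were all below the others, and the remaining groups overlapped. Elovl1 fell by 0.35 (SE 0.039, edgeR adjusted p = 7.84e-09) on the log2 scale in the Pam3CSK4-labelled against the untreated-labelled libraries and was 0.31 ± 0.041 SE higher in the 3SL-labelled against the Pam3CSK4-labelled libraries (edgeR adjusted p = 1.41e-07). With library size alone as the scaling, these log2 changes shrank to -0.03 (edgeR adjusted p = 0.452) and 0.04 (edgeR adjusted p = 0.419). Between the 3SL-labelled and untreated-labelled libraries the log2 change was -0.03, with a 95% interval of -0.12 to 0.05. Its exons overlap those of Cdc20 on the opposite strand by 53 bases, 1.94% of its exons. Cdc20 stood at 24.6 to 28.1 CPM in the 3SL-labelled, 39.8 to 41.6 CPM in the Pam3CSK4-labelled and 24.0 to 24.9 CPM in the untreated-labelled libraries.

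Elovl7 (ENSMUSG00000021696; chromosome 13, 108214404 to 108285683, plus strand) was near the floor of detection. It had 2, 4 and 7 counts in A2plus, B2plus and C2plus, 20, 19 and 11 counts in D1, D2 and D3, and 9, 26 and 8 counts in A2, B2 and C2. As levels these were 0.281 to 0.712 CPM in the 3SL-labelled, 0.841 to 1.60 CPM in the Pam3CSK4-labelled and 0.570 to 0.848 CPM in the untreated-labelled libraries. The untreated-labelled range overlapped both others. The log2 change of 0.81 ± 0.35 SE for Pam3CSK4-labelled against untreated-labelled (edgeR adjusted p = 0.0407) was lost without A2, B2, D1 or D2, with no filter on low counts (edgeR adjusted p = 0.074) and in DESeq2's Wald test (adjusted p = 0.147). The gene was not tested at 1 CPM in 3 libraries or at equal depth. The change of -1.27 ± 0.47 SE for 3SL-labelled against Pam3CSK4-labelled (edgeR adjusted p = 0.0171) was lost without D1, A2plus or B2plus. Against the untreated-labelled libraries, the 3SL-labelled libraries differed by -0.46, with a 95% interval of -1.48 to 0.56 (edgeR adjusted p = 0.655).

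**Figure D3:**
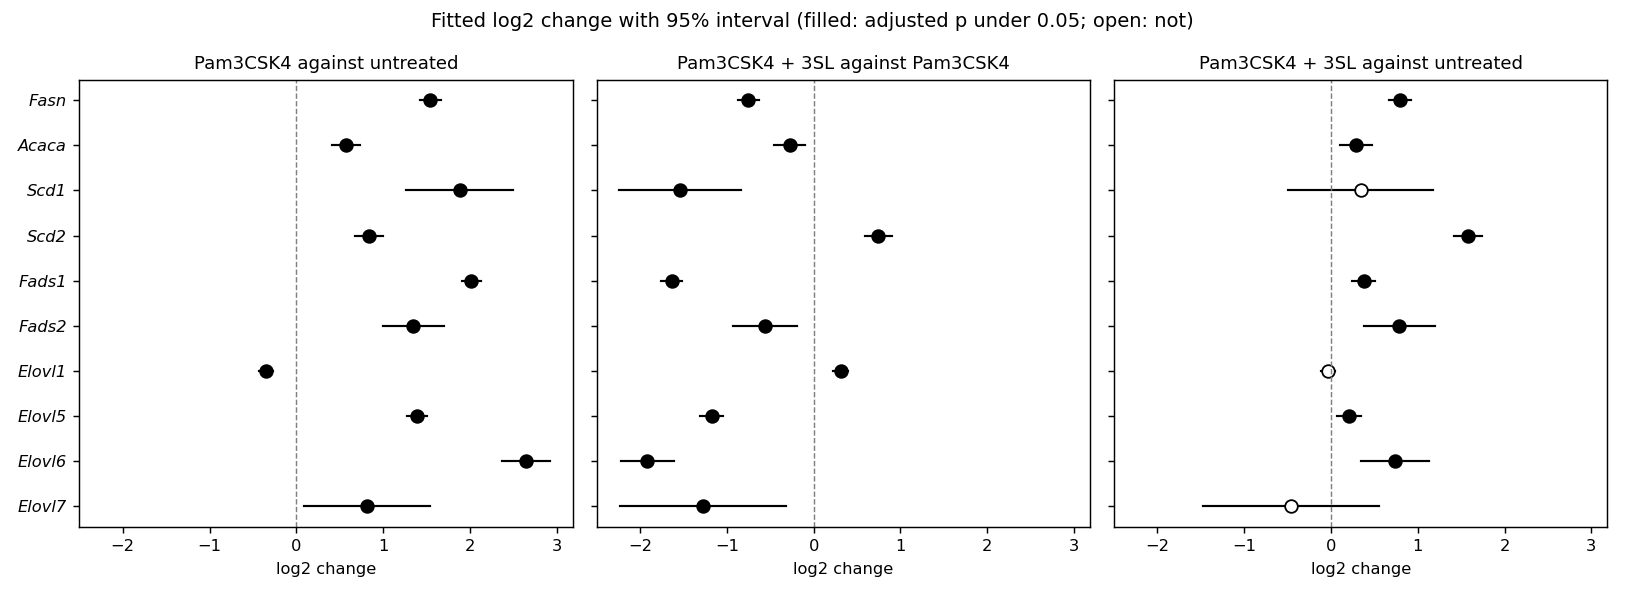
Each panel shows a comparison, with the fitted log2 change of each gene as a point and its 95% interval as a line; filled points passed an adjusted p of 0.05 and open points did not. Elovl6 has the largest change between Pam3CSK4-labelled and untreated-labelled libraries, 2.65, and Scd2 between 3SL-labelled and untreated-labelled libraries, 1.58.

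Per kilobase of exon, which allows genes to be set beside each other, Elovl1 had the highest level of the 10 in each group: 61.8 ± 1.39 CPM per kilobase in the 3SL-labelled, 49.8 ± 1.31 in the Pam3CSK4-labelled and 63.4 ± 1.99 in the untreated-labelled libraries (SD, n = 3 each). Scd2 was second in the 3SL-labelled libraries, at 29.8 ± 1.64 CPM per kilobase, and in the untreated-labelled libraries, at 10.04 ± 2.12. There its spread reached that of Elovl5, at 9.51 ± 0.768, so their order was not settled (SD, n = 3 each). In the Pam3CSK4-labelled libraries Fads1 was second, at 26.8 ± 0.682 CPM per kilobase, followed by Elovl5 at 24.5 ± 0.347, Scd2 at 17.7 ± 0.0978 and Fasn at 13.9 ± 0.680 (SD, n = 3 each). Fasn stood at 8.32 ± 0.745 and 4.79 ± 0.417 CPM per kilobase in the 3SL-labelled and untreated-labelled libraries (SD, n = 3 each). Acaca, Scd1, Fads2, Elovl6 and Elovl7 stood at 0.115 to 2.43 CPM per kilobase in all groups, and Elovl7 was lowest in each. The exon lengths were those of the union of annotated exons, which need not be the transcripts used in these cells.

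Across the 9 libraries the levels of Fads1, Elovl5 and Elovl6 tracked each other most closely, with Pearson's r of 0.99 for log2 CPM in each pair. Fads1 and Elovl1 ran opposite, with r of -0.97. Scd2 was tied less closely to the rest, with r between -0.27 and 0.60 for its pairs with the other members. These correlations describe libraries that fall into 3 groups, so they mainly carry the group differences, and no test is given. Among 7163 other genes whose log2 CPM averaged 4 or more, those most like Fasn were B4galt6, Eif2ak3, Tmc6, Acsl3 and Glul, with r between 0.987 and 0.996. Those most like Scd2 were Cyp51, Rab31, Sc5d, Hyou1 and Fdps, with r between 0.982 and 0.996. For 3SL-labelled against untreated-labelled libraries, the sterol enzyme gene Cyp51 had a log2 change of 0.85, Sc5d of 0.75 and Fdps of 0.84.

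The genes around these 10 were taken from 7 lists, which gave 68 tested genes. Of these, 31 rose and 27 fell in the Pam3CSK4-labelled against the untreated-labelled libraries, where 75.0% of all tested genes were called. In the 3SL-labelled against the Pam3CSK4-labelled libraries 34 rose and 23 fell, where 71.5% were called. In 3SL-labelled against untreated-labelled libraries 21 rose and 3 fell, where 8.94% were called, and 10 of those 21 were genes of cholesterol synthesis and uptake.

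Of 10 tested genes that are elongation cycle partners or electron donors, 5 rose and 4 fell in the Pam3CSK4-labelled against the untreated-labelled libraries. Of all tested genes, 75.0% were called there. In 3SL-labelled against untreated-labelled libraries 1 rose and none fell, where 8.94% of all tested genes were called. Hacd4, of the dehydratase family of the elongation cycle, averaged 165.8 ± 5.11 CPM in the Pam3CSK4-labelled and 81.2 ± 5.86 CPM in the untreated-labelled libraries (SD, n = 3 each; 2.04-fold, edgeR adjusted p = 2.34e-17). Hsd17b12, the ketoacyl-CoA reductase of the cycle, was 1.54-fold lower, at 218 ± 4.47 CPM in the Pam3CSK4-labelled against 335 ± 2.71 CPM in the untreated-labelled libraries (SD, n = 3 each; edgeR adjusted p = 8.78e-16). Tecr, the enoyl-CoA reductase, rose by 0.28 on the log2 scale (edgeR adjusted p = 2.44e-05). Cyb5b, a cytochrome b5 of the outer mitochondrial membrane, is listed with the electron donors. It was the gene of this list that rose in 3SL-labelled against untreated-labelled libraries, by 0.19 on the log2 scale (edgeR adjusted p = 0.00107). Hacd2 did not pass the test there (log2 change -0.28, edgeR adjusted p = 0.0518).

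Few other desaturases and elongases were expressed. Elovl2, Elovl3, Elovl4, Scd3 and Scd4 had too few counts to be tested. Fads6, a desaturase family member, stood at 3.68 ± 0.459 CPM in the Pam3CSK4-labelled and 1.82 ± 0.303 CPM in the untreated-labelled libraries (SD, n = 3 each; 2.13-fold, edgeR adjusted p = 6.44e-05). Degs1, the desaturase that makes ceramide, was lower by 0.19 on the log2 scale there and by 0.17 in 3SL-labelled against untreated-labelled libraries (edgeR adjusted p = 1.75e-05 and 0.00125). Fads3 passed the test in none of the comparisons.

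Of 8 tested genes listed for acetyl-CoA, malonyl-CoA and NADPH supply, 3 rose and 5 fell in the Pam3CSK4-labelled against the untreated-labelled libraries. Mlycd, 1 of the 3, encodes malonyl-CoA decarboxylase, which breaks malonyl-CoA down (log2 change 0.69 in that comparison, edgeR adjusted p = 3.35e-06). Of all tested genes, 39.0% were called higher there and 35.9% lower. In 3SL-labelled against untreated-labelled libraries 5 rose and none fell, where 3.83% of all tested genes were called higher and 5.11% lower. Idh1, which makes cytosolic NADPH, rose 1.64-fold in the Pam3CSK4-labelled libraries, to 229 ± 11.5 CPM, against 139.7 ± 2.67 CPM in the untreated-labelled libraries (SD, n = 3 each; edgeR adjusted p = 6.73e-15). Pgd, of the pentose phosphate pathway, fell 1.58-fold there, to 514 ± 11.6 CPM, against 811 ± 8.62 CPM in the untreated-labelled libraries (SD, n = 3 each; edgeR adjusted p = 4.35e-17), and Me1, malic enzyme, fell 2.06-fold. Acly, which makes cytosolic acetyl-CoA from citrate, stood at 246, 244 and 237 CPM in A2plus, B2plus and C2plus, at 217, 213 and 227 CPM in D1, D2 and D3, and at 199, 201 and 206 CPM in A2, B2 and C2. Its log2 change was 0.26 in 3SL-labelled against untreated-labelled libraries (edgeR adjusted p = 1.81e-05). Acss2, which makes acetyl-CoA from acetate, was 2.69-fold higher in 3SL-labelled than in Pam3CSK4-labelled libraries, at 7.76 ± 0.871 CPM against 2.87 ± 0.429 CPM (SD, n = 3 each; edgeR adjusted p = 1.17e-07).

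Among the regulators, Srebf1, which encodes SREBP-1, did not pass the test between the Pam3CSK4-labelled and untreated-labelled libraries. It stood at 86.6, 83.7 and 71.4 CPM in A2plus, B2plus and C2plus, at 65.0, 70.4 and 67.9 CPM in D1, D2 and D3, and at 68.2, 67.8 and 71.6 CPM in A2, B2 and C2. The log2 change was -0.02 for Pam3CSK4-labelled against untreated-labelled (edgeR adjusted p = 0.747) and 0.22 for 3SL-labelled against untreated-labelled (edgeR adjusted p = 0.0136), where C2plus overlapped C2. Nr1h3, which encodes liver X receptor alpha, was 5.21-fold lower in the Pam3CSK4-labelled than in the untreated-labelled libraries, at 22.2 ± 2.04 CPM against 115.9 ± 3.36 CPM (SD, n = 3 each; edgeR adjusted p = 6.75e-24). It was 4.61-fold higher in 3SL-labelled than in Pam3CSK4-labelled libraries, with a mean of 103 ± 3.06 CPM (SD, n = 3; edgeR adjusted p = 2.37e-22). Insig1, which holds SREBP precursors in the endoplasmic reticulum and is itself a known SREBP target, stood at 94.3, 96.8 and 98.8 CPM in A2plus, B2plus and C2plus. It stood at 116, 106 and 102 CPM in D1, D2 and D3, and at 54.5, 60.3 and 62.1 CPM in A2, B2 and C2. Its log2 change was 0.88 for Pam3CSK4-labelled against untreated-labelled (edgeR adjusted p = 9.47e-15) and 0.72 for 3SL-labelled against untreated-labelled (edgeR adjusted p = 4.32e-10). Mid1ip1, whose product promotes assembly of acetyl-CoA carboxylase into active filaments, was 3.27-fold higher in the Pam3CSK4-labelled than in the untreated-labelled libraries (124 ± 2.94 CPM against 38.1 ± 2.30 CPM; SD, n = 3 each; edgeR adjusted p = 4.07e-22). Of all 17 tested regulators, 6 rose and 9 fell in that comparison, where 39.0% of all tested genes were called higher and 35.9% lower. In 3SL-labelled against untreated-labelled libraries 4 rose and 1 fell, where 3.83% were called higher and 5.11% lower.

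Of 12 tested enzymes that activate fatty acids or place them in phospholipids, 6 rose and 6 fell in the Pam3CSK4-labelled against the untreated-labelled libraries, where 39.0% of all tested genes were called higher and 35.9% lower. Acsl1, an acyl-CoA synthetase, stood at 57.9 ± 1.22 CPM in the Pam3CSK4-labelled and 480 ± 10.5 CPM in the untreated-labelled libraries (SD, n = 3 each; 8.29-fold lower, edgeR adjusted p = 6.33e-30). Acsl3, another acyl-CoA synthetase, averaged 33.9 ± 0.748 CPM in the Pam3CSK4-labelled and 10.2 ± 0.301 CPM in the untreated-labelled libraries (SD, n = 3 each; 3.30-fold higher, edgeR adjusted p = 1.31e-16). In the 3SL-labelled libraries Acsl3 stood at 18.5 ± 2.68 CPM (SD, n = 3), which was 1.78-fold above the untreated-labelled level (edgeR adjusted p = 1.31e-06). Acsl1 was the 1 gene of the list that fell in that comparison, by 0.35 on the log2 scale (edgeR adjusted p = 4.62e-08). Lpcat2 was 5.04-fold lower in the Pam3CSK4-labelled than in the untreated-labelled libraries (edgeR adjusted p = 4.66e-26), and Lpcat3, which places polyunsaturated chains in phosphatidylcholine, was 1.21-fold lower (edgeR adjusted p = 3.97e-04).

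Mitochondrial fatty acid synthesis, a separate pathway that provides lipoic acid, had 8 tested genes. Of these, 2 rose and 1 fell in the Pam3CSK4-labelled against the untreated-labelled libraries, where 75.0% of all tested genes were called, and 1 rose and 3 fell in the 3SL-labelled against the Pam3CSK4-labelled libraries, where 71.5% were called. None passed edgeR's test in 3SL-labelled against untreated-labelled libraries, where 8.94% of tested genes were called. The gene that fell was Mecr, the last reductase of that cycle, at 14.5 ± 0.913 CPM in the Pam3CSK4-labelled against 24.9 ± 0.937 CPM in the untreated-labelled libraries (SD, n = 3 each; 1.71-fold lower, edgeR adjusted p = 1.24e-09). Ndufab1, the acyl carrier protein, rose by 0.23 on the log2 scale (edgeR adjusted p = 0.00575). Cbr4 and Oxsm had log2 changes of 0.06 and -0.03 (edgeR adjusted p = 0.585 and 0.774).

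Cholesterol synthesis and uptake shares SREBP control with these enzymes. It was the list whose genes all rose in 3SL-labelled against untreated-labelled libraries, 10 of 10 tested, with a median log2 change of 0.73. Of all tested genes, 3.83% were called higher there. Cyp51 stood at 180.0, 169.7 and 160.0 CPM in A2plus, B2plus and C2plus, at 127, 129.5 and 127 CPM in D1, D2 and D3, and at 86.3, 95.03 and 103 CPM in A2, B2 and C2. Its order of groups was that of Scd2. Lss, which makes lanosterol, was 2.0-fold higher in 3SL-labelled than in untreated-labelled libraries (46.9 ± 5.68 CPM against 23.2 ± 2.56 CPM; SD, n = 3 each; edgeR adjusted p = 3.38e-09). Dhcr7, the last enzyme on the way to cholesterol, was instead highest in the Pam3CSK4-labelled libraries, at 36.9 ± 3.77 CPM against 6.77 ± 0.651 CPM in the untreated-labelled libraries (SD, n = 3 each; 5.41-fold, edgeR adjusted p = 1.15e-18). In that comparison 8 of the 10 genes rose and 1 fell, where 39.0% of all tested genes were called higher and 35.9% lower.

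**Figure D4:**
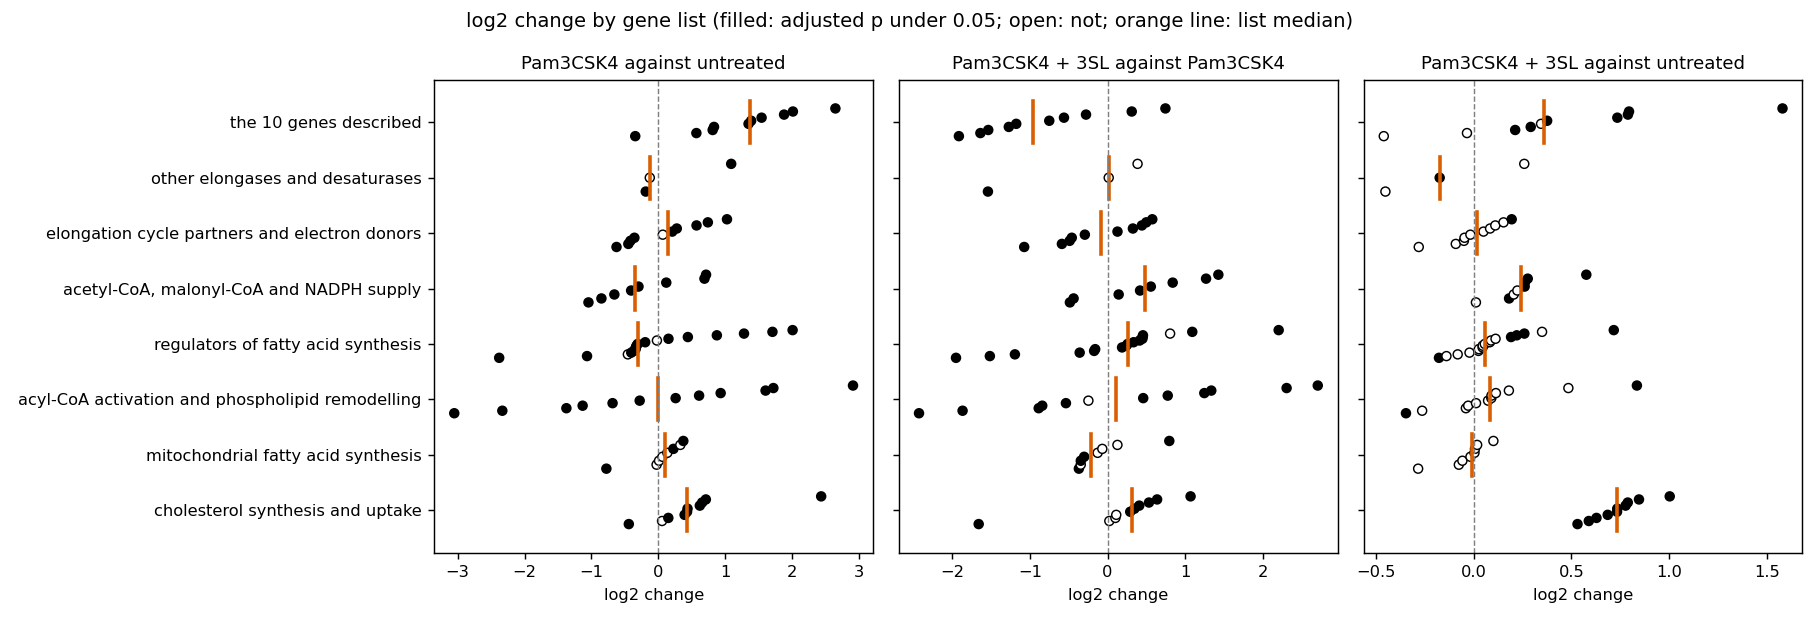
Each panel shows a comparison, with the fitted log2 change of every tested gene by list; filled points passed an adjusted p of 0.05, open points did not, and the orange line is the list's median. The cholesterol genes all lie above 0 in 3SL-labelled against untreated-labelled libraries, with a median of 0.73, beside 0.36 for the 10 genes.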

How the data were processed

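Total RNA of 9 macrophage samples was extracted with TRIzol and made into NEBNext Ultra libraries, per the labels' protocols. The authors deposited whole-number counts per gene in 1 table for the series, and the 15 columns of other samples in it were not used. HISAT2 2.1.0, featureCounts and Subread are named, without parameters, per the submitters' processing notes. The same notes name the human build hg38, while the table lists mouse Ensembl genes, so which build was counted is not settled, and the sources used here do not give whether counting used strand.

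The tests used edgeR 4.0.16 (R 4.3.3) with filterByExpr (11469 genes kept), TMM scaling, 1 mean per group over all 9 libraries, the quasi-likelihood test and Benjamini-Hochberg adjustment over all tested genes at 0.05. SE is the log2 change divided by the square root of F. The procedure was tested on simulated counts. Replicates differed by a chi-square per degree of freedom of 1.84 to 3.23, so none was taken as a second deposit of another. Alternatives were other scalings (DESeq2 size factors, library size alone), other filters (none, or 1 CPM in 3 libraries), DESeq2 1.42.0, equal depth, only the groups compared, a replicate block and leaving out each library. The fit with D1 alone was chosen after seeing the data, as was the list of hepatocyte genes (Alb, Apoa1, Apoa2, Ttr, Fabp1, Mup3, Serpina1c).

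The members, lists and tests were chosen with earlier results of these data known. From each of 7 lists, the text names the 2 genes with the smallest p and the gene with the largest change per comparison, plus Srebf1, Nr1h3, Insig1, Acly, Acss2, Lpcat3, Hsd17b12, Tecr and Degs1, and, for Fasn and Scd2, the 5 genes most correlated in log2 CPM (0.5 added). Other genes were named after their values were seen. Some genes that the rule names are not reported here. Gene coordinates and exons are those of GENCODE M21 on GRCm38, and promoters those of RefSeq on GRCm38.p6. Wilson intervals and floors cover counting error only, while intervals of log2 changes come from the fit and include the spread among libraries.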

Additional observations from a re-analysis of the deposited data

How the results depend on the processing

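In the 3SL-labelled against the untreated-labelled comparison, 7 of the 10 genes rose, but 4 did when libraries were thinned to equal depth and 4 with a replicate block for the letters A, B and C (Acaca, Elovl5 and Elovl6 lost both times). The letters do not pair the libraries by the labels, the deviations of same-letter libraries correlated at 0.03, 0.12 and -0.02, and not every library correlated best with its own letter. Leaving out 1 library at a time gave 3 to 7 genes higher, with 3 without B2 or without C2plus, and 626 to 1038 called genes among all tested, beside 1025, with 626 without B2 and 683 without A2plus. Scd2, Fasn and Fads1 kept their calls in this comparison under every alternative run. With library size alone, no gene of the 10 fell in the Pam3CSK4-labelled against the untreated-labelled libraries (0, beside 1), 1 rose in the 3SL-labelled against the Pam3CSK4-labelled libraries (beside 2), and the log2 change of Elovl1 between 3SL-labelled and untreated-labelled libraries turned to 0.0048. With D1 as the only Pam3CSK4-labelled library, assumed to vary like the others, 5 genes fell in the 3SL-labelled libraries against it (beside 8). The cause of these changes was not tested, except that fewer libraries or reads enter some of them. Of the values tried for changes of single genes, 458 kept direction and side of the threshold, 43 lost the call and 1 reversed. Elovl7, with 2 to 26 counts a library, and Scd1, Elovl6 and Fads2 outside the Pam3CSK4-labelled libraries are limited by depth.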
